A study of Mus musculus with 16 samples.

Results

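The 35 genes described here encode proteins of the hair bundle and of mechanotransduction, and they were taken by symbol from the authors' normalized table of 21220 genes. They comprise 6 unconventional myosins, 9 cadherins, receptors and scaffolds of the tip and ankle links, 5 proteins of the transduction channel complex, 2 membrane or extracellular bundle proteins, 8 proteins of the actin core and 5 proteins of the taper, the membrane linkage and bundle polarity. All 35 had a row in the table, all 35 passed the filter on low counts, and all 35 were tested among 17125 genes. RNA was measured in cultures of the organ of Corti, where the hair cells of the cochlea lie, from newborn C57BL/6 mice. The 4 groups were Rest(+/deltaExon4) cultures with 2 nM FK228, Rest(+/deltaExon4) cultures with solvent (0.1% DMSO), wild-type cultures with FK228 and wild-type cultures with solvent. Rest(+/deltaExon4) mice carry a deletion of exon 4 of Rest on a single allele, and they are called heterozygous below. FK228, also known as romidepsin, is a depsipeptide that inhibits histone deacetylases of class I. Each group held 4 libraries, each made from RNA pooled over 6 to 8 cultures. The cultures were exposed to FK228 or solvent in 2 pulses, at 1 to 1.5 and 3 to 3.5 days in vitro, with RNA taken at 3.5 days. Whether pools within a group are from different litters is not given, and p-values therefore cover only the variation among these pools. Whole explants were sequenced, so fewer hair cells and less RNA per hair cell cannot be told apart.

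The hair bundle is a staircase of actin-filled stereocilia on the apical surface of each hair cell. Deflection of the bundle tensions the tip links, which are made of cadherin 23 and protocadherin 15 and pull open ion channels that contain TMC1 or TMC2. Myosins carry cargo to the stereocilia tips or anchor the bundle, ankle links join neighbouring stereocilia near their base during development, and espins, fascin and plastins cross-link the actin core. REST is a DNA-binding repressor that silences neuronal genes with the help of histone deacetylases, and in hair cells its activity is known to be lowered by alternative splicing that includes exon 4.

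Library depth ran from 12361027 to 23611571 gene counts. Rest itself, the targeted gene, ranged from 75.8 to 87.3 CPM (counts scaled by library size) in heterozygous FK228 libraries, 78.1 to 94.8 CPM in heterozygous solvent libraries, 69.9 to 79.9 CPM in wild-type FK228 libraries and 75.2 to 86.4 CPM in wild-type solvent libraries. Gene-level counts do not separate the allele without exon 4, and Rest was not called in either genotype contrast (adjusted p = 0.525 with FK228 and 0.654 in solvent). Reads outside genes made up 16.39% to 20.99% of reads in wild-type FK228 libraries, against 10.92% to 16.48% in wild-type solvent libraries. In heterozygous libraries they made up 17.75% to 19.97% with FK228, against 10.47% to 19.92% in solvent. Fits with this share in the model therefore cannot fully separate it from FK228, and their FK228 values are not corrected estimates. Over all libraries the share was 10.5% to 21%, lowest in heterozygous solvent replicate 4 and wild-type solvent replicate 1. Those 2 libraries also had the highest mean log2(CPM + 0.5) over the 35 genes within their groups, at 3.53 and 3.62, against 3.2 to 3.34 in the other heterozygous solvent libraries and 3.43 to 3.62 in the other wild-type solvent libraries.

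**Figure D1:**
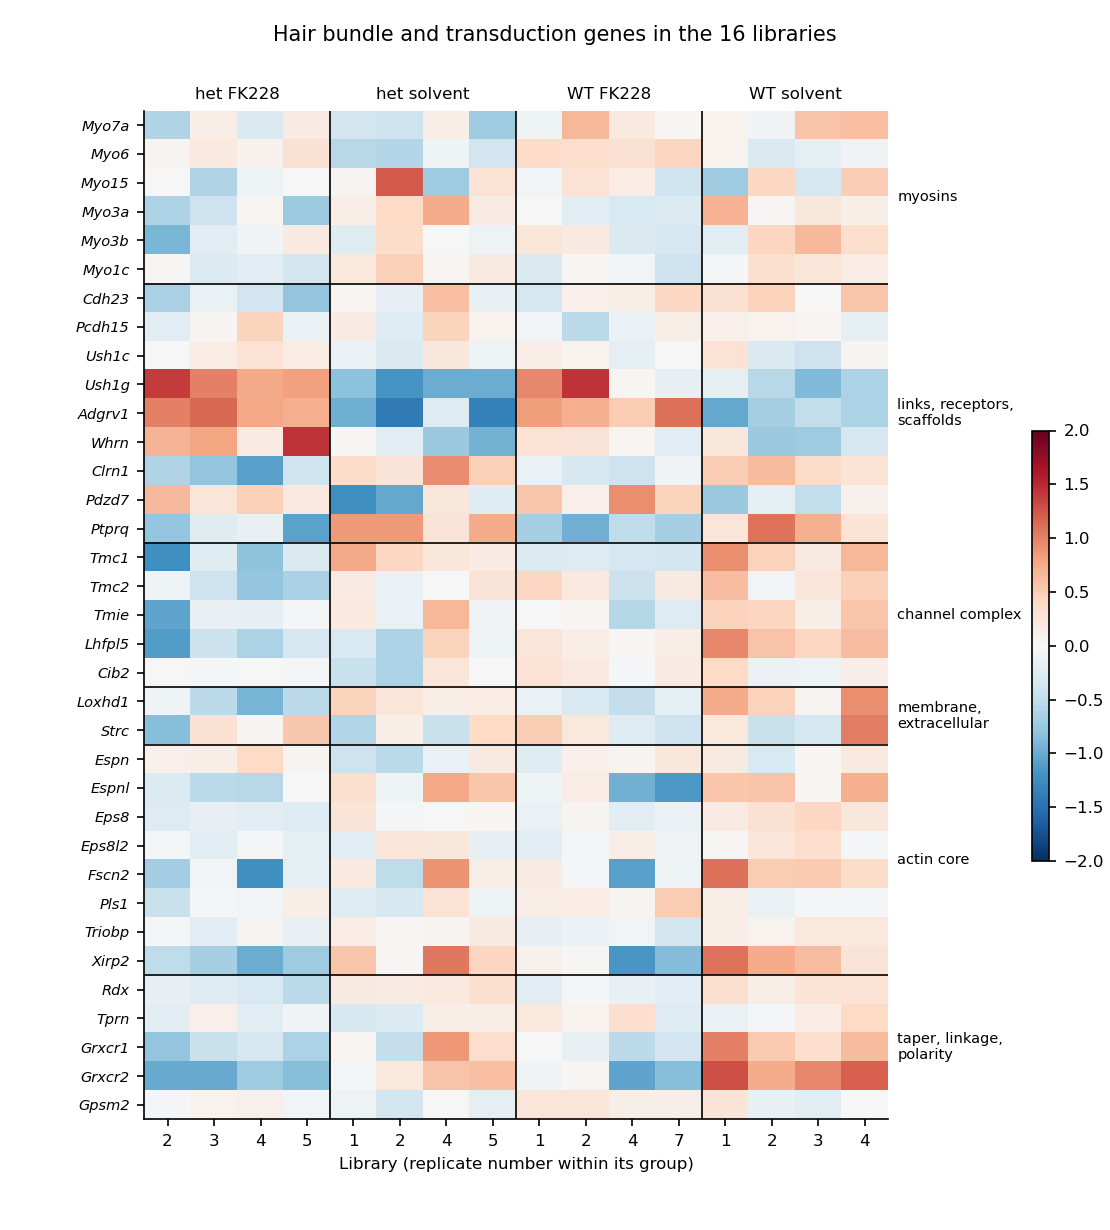
Log2(CPM + 0.5) of each of the 35 genes (rows, by role) in each of the 16 libraries (columns, by group), minus the gene's mean over all libraries; red is above and blue below that mean. Ush1g and Adgrv1 are above their means in the FK228 libraries of the heterozygous cultures, and Grxcr2 is below its mean there.

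The genes differed widely in level. On the per-length scale (FPKM, which divides CPM by exon length in kilobases), the highest in wild-type solvent cultures were Pls1 (plastin 1, an actin cross-linker) at 51.2 ± 3.94, Rdx (radixin, which ties membrane to actin) at 46.5 ± 2.80, Cib2 (a calcium-binding subunit of the channel complex) at 37.1 ± 6.42 and Myo6 (a myosin that moves towards the minus end of actin and anchors the stereocilia base) at 23.5 ± 2.46 FPKM (SD, n = 4). Pls1, Rdx and Myo6 are also expressed in many epithelia without hair bundles. The lowest levels in those cultures were those of Ush1g (the scaffold SANS of the upper tip link) at 0.0843 ± 0.0487, Myo15 (the motor that delivers the tip elongation complex) at 0.0988 ± 0.0525 and Adgrv1 (the giant adhesion receptor of the ankle links) at 0.104 ± 0.0183 FPKM. In the channel complex the order in wild-type solvent cultures was Cib2, Lhfpl5 (10.1 ± 1.68), Tmie (4.15 ± 0.535), Tmc1 (1.32 ± 0.305) and Tmc2 (0.683 ± 0.166 FPKM), with no overlap between neighbours in this order. Pcdh15 stood at 0.398 ± 0.0378 and Cdh23 at 0.251 ± 0.0446 FPKM in the same cultures.

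With FK228, 19 of the 35 genes were called in each genotype, a share near that of all genes tested (48.4% in heterozygous and 49% in wild-type cultures), and more of the 35 fell than rose. In heterozygous cultures 5 rose and 14 fell with FK228, where 23.8% of all genes tested were called higher and 24.7% lower. In wild-type cultures 4 rose and 15 fell, where 23.7% of all genes were called higher and 25.3% lower. The median log2 fold change over the 35 genes was -0.30 in heterozygous and -0.28 in wild-type cultures, against 0.00082 and -0.0058 over all genes tested. The FK228 contrasts of the genotypes share no library. Adgrv1, Pdzd7, Ush1g and Myo6 rose in both. Myo1c, Clrn1, Ptprq, Tmc1, Lhfpl5, Loxhd1, Espnl, Eps8, Xirp2, Rdx, Grxcr1 and Grxcr2 fell in both, and 0 genes were called in opposite directions. The sign was the same in both genotypes for 31 of the 35 genes (88.6%), against 86.2% of all genes tested. Without the 2 libraries lowest in reads outside genes, 8 rose and 12 fell in heterozygous cultures, and 6 rose and 14 fell in wild-type cultures. Under that setting 8127 of 17407 genes tested were called in heterozygous cultures (4013 of them higher) and 8213 in wild type (4078 of them higher).

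**Figure D2:**
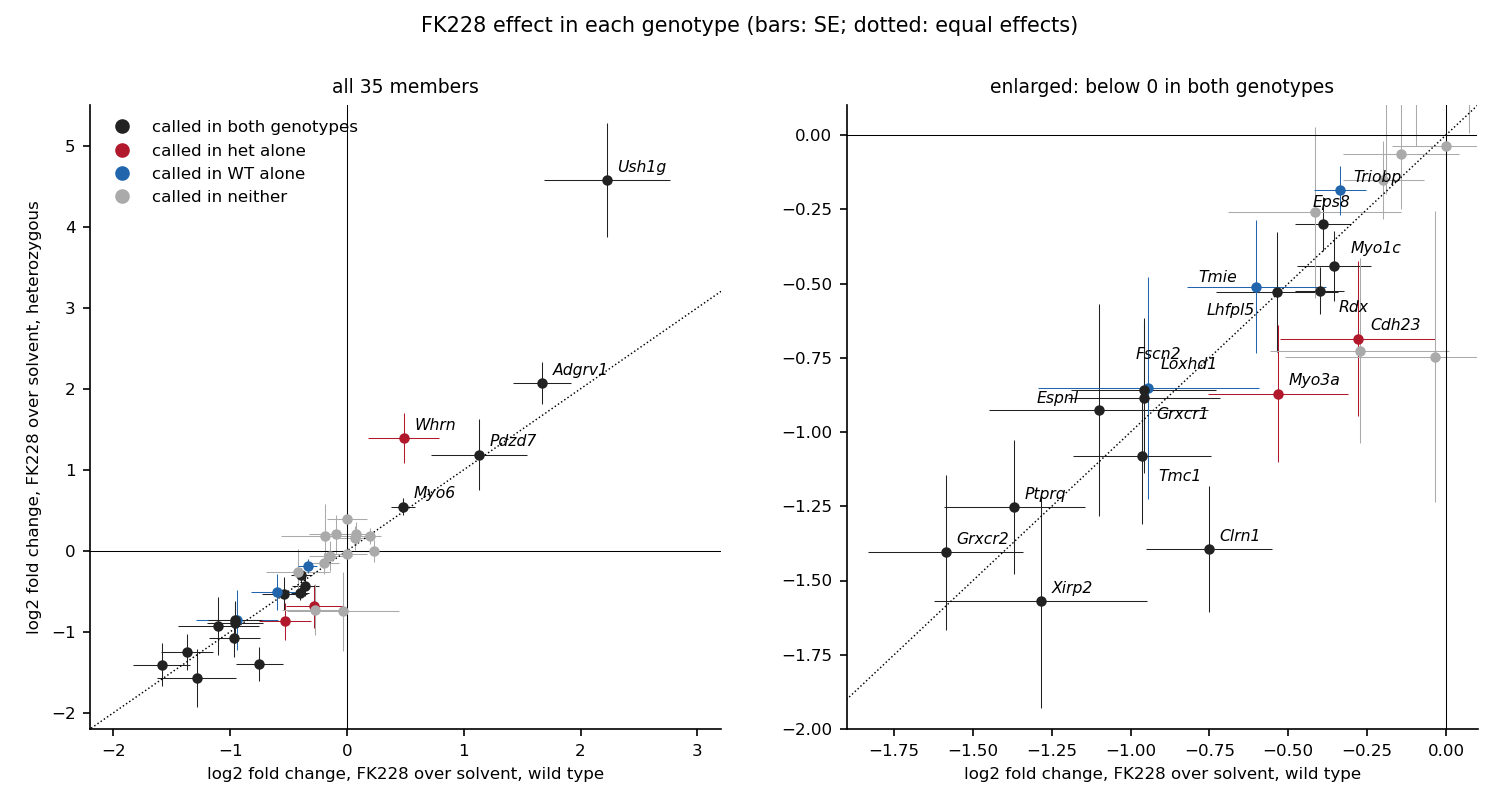
Log2 fold change of FK228 over solvent in heterozygous cultures (vertical axis) against wild-type cultures (horizontal axis) for the 35 genes, with SE bars; the right panel enlarges the genes below 0. Ush1g (4.58 and 2.23), Adgrv1 (2.07 and 1.67), Pdzd7 (1.19 and 1.13) and Myo6 (0.55 and 0.48) lie above 0 on both axes, and 12 called genes lie below 0 on both.

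Of the ankle link genes Adgrv1 and Pdzd7 rose in both genotypes and Whrn was called in heterozygous cultures. Adgrv1 lies on chromosome 13 from 81095068 to 81633154 (minus strand, GRCm38) and its protein spans the gap between stereocilia as the ankle link. It had 9.45, 10.5, 8.04 and 7.71 CPM in heterozygous FK228 libraries, against 2.03, 1.37, 3.64 and 1.44 CPM in heterozygous solvent libraries. In wild type it had 8.34, 7.74, 6.58 and 10.1 CPM with FK228, against 1.94, 2.64, 3.03 and 2.70 CPM in solvent. Every FK228 library lay above every solvent library in both genotypes. The log2 fold change was 2.07 ± 0.26 in heterozygous (adjusted p = 3.38e-06) and 1.67 ± 0.25 in wild-type cultures (adjusted p = 2.37e-05; all log2 fold changes carry the model's SE).

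Pdzd7, a PDZ scaffold that binds ADGRV1 at the ankle links, had 2.34, 1.65, 2.03 and 1.57 CPM in heterozygous FK228 libraries, against 0.280, 0.393, 1.62 and 1.03 CPM in heterozygous solvent libraries. Wild-type libraries had 2.16, 1.45, 2.96 and 1.98 CPM with FK228, against 0.588, 1.10, 0.785 and 1.44 CPM in solvent. The heterozygous groups overlapped through solvent replicate 4 and the wild-type groups did not overlap. Pdzd7 rose by 1.19 ± 0.43 in heterozygous (adjusted p = 0.0305) and 1.13 ± 0.41 in wild-type cultures (adjusted p = 0.029) on the log2 scale. Of its exons 5.08% is shared with other genes, the largest overlap being with Lzts2. Its call was lost in heterozygous cultures without FK228 replicate 2 or 4 or solvent replicate 1 or 2 (adjusted p up to 0.0918), and in wild type without FK228 replicate 1 or 4 or solvent replicate 1 or 3 (up to 0.0953). It was also lost in both with spike-in scaling, and in heterozygous cultures when only those groups were fitted.

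Whrn encodes whirlin, a PDZ scaffold of the ankle links and of the stereocilia tips. It had 7.18, 7.79, 4.86 and 12.4 CPM in heterozygous FK228 libraries, against 4.33, 3.60, 2.36 and 1.99 CPM in heterozygous solvent libraries, with no overlap. Its wild-type levels were 5.34, 5.20, 4.41 and 3.57 CPM with FK228, against 5.06, 2.37, 2.41 and 3.28 CPM in solvent, and these groups overlapped. The log2 fold change was 1.39 ± 0.31 in heterozygous (adjusted p = 0.00117) and 0.49 ± 0.31 in wild-type cultures (adjusted p = 0.199). The difference of these effects (heterozygous minus wild type) was 0.90 ± 0.43 with an adjusted p of 0.863, so the effects were not shown to differ. Whrn was called in wild type too (0.79, adjusted p = 0.0441) without the 2 libraries lowest in reads outside genes, and its heterozygous call was lost with spike-in scaling (adjusted p = 0.0794).

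Ush1g was read at very low depth. Its counts were 33, 26, 21 and 19 in heterozygous FK228 libraries, against 2, 0, 1 and 1 in heterozygous solvent libraries. In wild type they were 30, 43, 11 and 9 with FK228, against 11, 5, 2 and 4 in solvent. On the CPM scale these are 1.42 to 2.5 in heterozygous FK228, 0 to 0.14 in heterozygous solvent, 0.509 to 2.60 in wild-type FK228 and 0.112 to 0.497 in wild-type solvent libraries, with no overlap within either genotype. Summed over libraries, 99 counts with FK228 against 4 in solvent gave a CPM-scale ratio of 26.4 in heterozygous cultures (exact 95% interval 10.01 to 99.0), and 93 against 22 gave 4.67 in wild type (2.91 to 7.81). These intervals cover counting error only. The fitted log2 fold changes were 4.58 ± 0.70 (adjusted p = 3.01e-05) and 2.23 ± 0.54 (adjusted p = 0.00223), and the heterozygous one depends on how counts near 0 are treated. Ush1g passed the filter on low counts only through its FK228 libraries, since no solvent library exceeded 0.497 CPM. When only the wild-type groups were fitted, it did not pass the filter. Its p-values therefore describe a gene kept for its FK228 level. Leaving out any 1 library kept both calls.

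Myo6 was the myosin that rose. It had 317, 349.6, 324 and 378 CPM in heterozygous FK228 libraries, against 208, 204, 289.8 and 235 CPM in heterozygous solvent libraries. The wild-type values were 398, 390.0, 379.7 and 414 CPM with FK228, against 320.3, 252, 269.6 and 293 CPM in solvent. Groups did not overlap in either genotype. It rose by 0.55 ± 0.10 (adjusted p = 0.0002) in heterozygous and 0.48 ± 0.10 (adjusted p = 0.000648) in wild-type cultures on the log2 scale, but with spike-in scaling its heterozygous value turned to -0.16 (adjusted p = 0.257).

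Of the other myosins, Myo1c, an adaptation motor candidate of the bundle that many tissues express, fell with log2 fold changes of -0.44 ± 0.12 in heterozygous (adjusted p = 0.00498) and -0.36 ± 0.12 in wild-type cultures (adjusted p = 0.0181). The wild-type call of Myo1c was lost without FK228 replicate 1 or 7 or solvent replicate 2 (adjusted p up to 0.0711). Myo3a, a motor that carries espin-family proteins to the tips, fell with a log2 fold change of -0.87 ± 0.23 in heterozygous cultures (adjusted p = 0.0042). In wild type it had 3.32 to 4.26 CPM with FK228, against 4.29 to 7.10 CPM in solvent, and did not pass (log2 fold change -0.53 ± 0.22, adjusted p = 0.055). Myo7a, the motor of the upper tip link, Myo15 and Myo3b were called in neither genotype. Myo7a had 5.90 to 10.4 CPM in heterozygous FK228 and 5.41 to 10.1 CPM in heterozygous solvent libraries, and 8.51 to 14.9 CPM in wild-type FK228 and 8.69 to 14.2 CPM in wild-type solvent libraries.

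**Figure D3:**
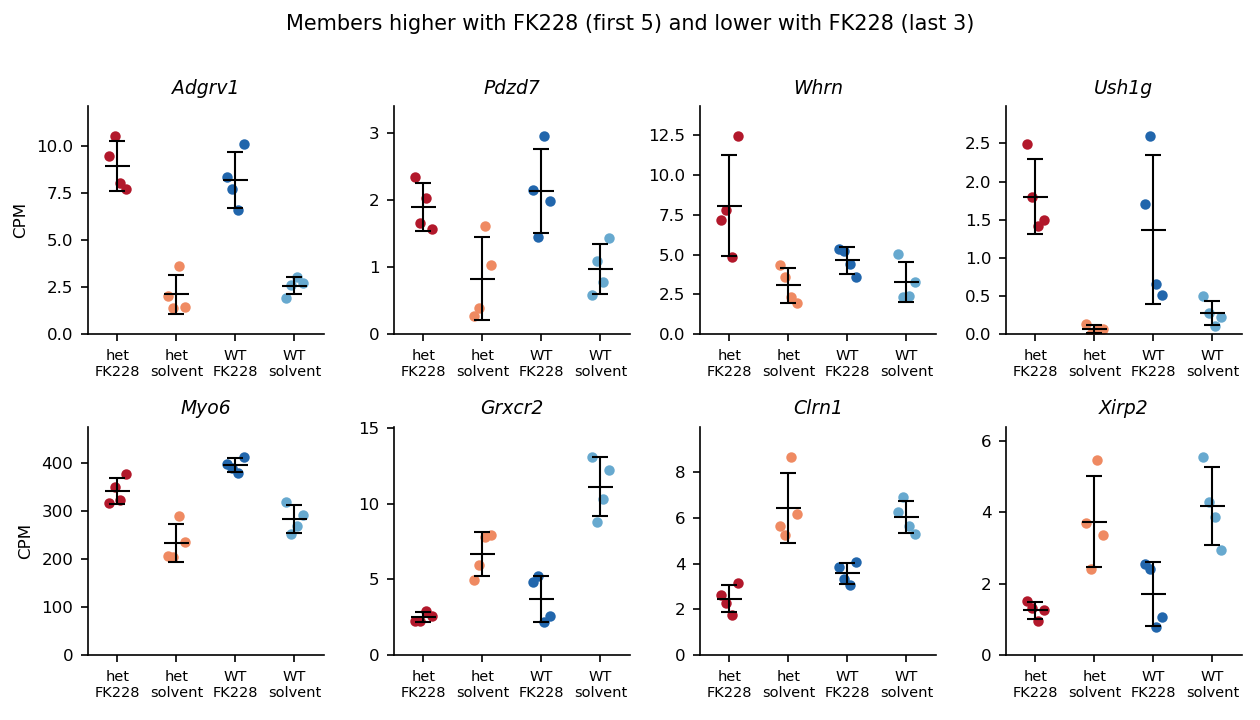
CPM of 8 genes in every library by group (points), with the mean and SD of 4 libraries (black), on linear axes from 0. Adgrv1 is at 7.71 to 10.5 in heterozygous FK228 against 1.37 to 3.64 in heterozygous solvent libraries, whereas Grxcr2 is at 2.27 to 2.91 against 4.96 to 7.94.

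The promoters of genes that rose in both genotypes are shown because these genes moved together, with a pair of genes that fell beside them, and all windows were searched for the DNA element that REST binds. Windows of 300 bases (250 before to 50 after the start) came from RefSeq on GRCm38.p6. The 36 windows used covered 29 of the 35 genes. No window was used for Tmc2, Ush1g, Ptprq, Loxhd1, Eps8 or Grxcr2, so the shares below leave these genes out. Their absence here does not show that RefSeq lacks a window for them. Ush1g was called higher, and Ptprq, Loxhd1, Eps8 and Grxcr2 lower, in both genotypes, so the shares by call are incomplete. The left part of the REST element, CAGCACC, and the right part, GGACAG, were searched on both strands. Capitals mark matches to either. Adgrv1 is at chr13:81633095-81633394 (minus strand), Pdzd7 at chr19:45045723-45046022 (minus strand) and Myo6 at chr9:80164784-80165083 (plus strand), all 3 higher with FK228, and Lhfpl5 at chr17:28575469-28575768 (plus strand) and Tmc1 at chr19:20954153-20954452 (minus strand) were both lower with FK228.
Adgrv1: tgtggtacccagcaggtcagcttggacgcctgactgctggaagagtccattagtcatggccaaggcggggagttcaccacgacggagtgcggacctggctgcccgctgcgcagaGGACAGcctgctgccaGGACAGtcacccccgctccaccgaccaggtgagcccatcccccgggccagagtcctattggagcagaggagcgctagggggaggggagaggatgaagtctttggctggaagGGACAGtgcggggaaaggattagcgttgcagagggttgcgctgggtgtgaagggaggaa
Pdzd7: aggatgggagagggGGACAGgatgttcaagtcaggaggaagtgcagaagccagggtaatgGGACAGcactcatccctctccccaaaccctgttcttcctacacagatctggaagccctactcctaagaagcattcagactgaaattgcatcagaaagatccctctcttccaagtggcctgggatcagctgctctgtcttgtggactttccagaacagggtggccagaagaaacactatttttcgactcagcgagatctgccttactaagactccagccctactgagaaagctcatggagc
Myo6: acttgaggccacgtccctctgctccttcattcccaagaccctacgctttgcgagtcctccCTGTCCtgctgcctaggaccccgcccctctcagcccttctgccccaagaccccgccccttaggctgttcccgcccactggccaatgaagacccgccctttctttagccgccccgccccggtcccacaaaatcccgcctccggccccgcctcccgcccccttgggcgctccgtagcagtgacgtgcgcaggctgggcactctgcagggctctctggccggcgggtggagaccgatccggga
Lhfpl5: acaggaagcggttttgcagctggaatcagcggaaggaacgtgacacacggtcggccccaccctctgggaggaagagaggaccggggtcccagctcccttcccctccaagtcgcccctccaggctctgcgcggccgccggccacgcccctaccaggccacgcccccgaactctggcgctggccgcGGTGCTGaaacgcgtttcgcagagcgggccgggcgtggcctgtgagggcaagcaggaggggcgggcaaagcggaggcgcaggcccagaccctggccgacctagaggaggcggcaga
Tmc1: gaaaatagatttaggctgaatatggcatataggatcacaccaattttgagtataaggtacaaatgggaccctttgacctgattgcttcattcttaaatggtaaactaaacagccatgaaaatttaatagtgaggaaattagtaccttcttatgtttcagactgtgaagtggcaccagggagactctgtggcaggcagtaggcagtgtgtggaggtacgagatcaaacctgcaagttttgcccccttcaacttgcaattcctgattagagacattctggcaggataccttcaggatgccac
GGACAG stood 3 times in the Adgrv1 window, 2 times in that of Pdzd7 and 1 time in that of Myo6. The printed pair that fell had none. Rdx, Myo3a and Cdh23, called lower in at least 1 genotype, had it, as did the uncalled Ush1c. Whrn, called higher in heterozygous cultures, did not. With 1 window per gene, GGACAG was in 75% of 4 windows of genes called higher, 23.1% of 13 called lower and 25% of 12 not called. These shares were not tested. GGACAG was in 30.6% of the 36 windows of these genes, against 22.2% of all 32851 RefSeq windows. CAGCACC was in 5.56% of the windows (those of Myo7a and Lhfpl5), against 7.14% of all. The parts in order with at most 10 bases between them were in 0 windows of these genes and in 36 of all windows. These letters describe the windows and say nothing of binding.

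In the transduction channel complex, Tmc1, a pore-forming subunit on chromosome 19 (20783458 to 20954202, minus strand, GRCm38), fell with FK228 in both genotypes. It had 2.34, 5.10, 3.31 and 4.96 CPM in heterozygous FK228 libraries, against 10.7, 8.38, 7.27 and 6.92 CPM in heterozygous solvent libraries. Wild-type libraries had 5.0, 5.08, 4.77 and 4.64 CPM with FK228, against 12.2, 8.69, 7.01 and 10.1 CPM in solvent. All FK228 libraries lay below all solvent libraries of the same genotype. It fell with log2 fold changes of -1.08 ± 0.23 (adjusted p = 0.000747) in heterozygous and -0.96 ± 0.22 (adjusted p = 0.0014) in wild-type cultures.

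Tmc2, the early pore subunit that TMC1 replaces in the maturing mouse cochlea, had 1.51, 1.10, 0.743 and 0.866 CPM in heterozygous FK228 libraries, against 1.89, 1.44, 1.62 and 2.05 CPM in heterozygous solvent libraries. Its wild-type levels were 2.33, 1.93, 1.09 and 1.92 CPM with FK228, against 2.76, 1.54, 2.02 and 2.47 CPM in solvent. Groups overlapped in both genotypes and neither contrast passed (log2 fold change -0.73 ± 0.31, adjusted p = 0.0625 in heterozygous; -0.27 ± 0.28, adjusted p = 0.446 in wild type). Its counts ran from 11 to 61 reads per library.

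Tmie, a membrane protein needed for the channel, had 4.39, 8.62, 8.58 and 9.52 CPM in heterozygous FK228 libraries, against 11, 8.71, 15.5 and 9.11 CPM in heterozygous solvent libraries. The wild-type values were 9.59, 9.91, 6.34 and 7.98 CPM with FK228, against 13.4, 13.1, 10.5 and 14.4 CPM in solvent. The wild-type groups did not overlap and Tmie fell there (-0.60 ± 0.22, adjusted p = 0.03), and the heterozygous contrast did not pass (-0.51 ± 0.23, adjusted p = 0.0698). Its wild-type call was lost without FK228 replicate 4 or 7 or solvent replicate 1, 2 or 4 (adjusted p up to 0.0981). It was also lost with the share of reads outside genes in the model (-0.47, adjusted p = 0.0924). Of the exons of Tmie, 7.89% is shared with other genes, the largest overlap being with Als2cl.

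Cib2 had 50.1, 49.1, 49.7 and 48.3 CPM in heterozygous FK228 libraries, against 36.4, 31.9, 59.0 and 49.5 CPM in heterozygous solvent libraries. In wild type it had 61.3, 57.4, 48.9 and 56.2 CPM with FK228, against 65.7, 45.9, 46.6 and 54.6 CPM in solvent. The heterozygous solvent libraries spread over nearly the whole range of the gene, and Cib2 was called in neither genotype (0.16 ± 0.15, adjusted p = 0.415; 0.07 ± 0.15, adjusted p = 0.72). Of its exons 15.8% is shared with other genes, the largest overlap being with Sh2d7. With the share of reads outside genes in the model Cib2 was called higher in heterozygous (0.43, adjusted p = 0.000495) and wild-type cultures (0.33, adjusted p = 0.00377). That share itself differed between FK228 and solvent libraries, so these are not corrected estimates.

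Lhfpl5, which couples protocadherin 15 to the channel and lies on chromosome 17 from 28575641 to 28585679 (plus strand, GRCm38), was the gene of the 35 that was called by genotype. It had 12.2, 9.76, 20.7 and 14.2 CPM in heterozygous solvent libraries, against 29.9, 22.9, 20.5 and 23.5 CPM in wild-type solvent libraries. With FK228 it had 6.73, 11.2, 9.59 and 11.9 CPM in heterozygous libraries, against 18, 16.7, 15.5 and 16.6 CPM in wild-type libraries. The FK228 groups did not overlap, whereas heterozygous solvent replicate 4 lay above wild-type solvent replicate 3. The log2 fold change of heterozygous over wild type in solvent was -0.77 ± 0.20, with an adjusted p of 0.0473, and that with FK228 was -0.76 ± 0.20, with an adjusted p of 0.0571, so only the solvent contrast passed. DESeq2 called both (adjusted p = 0.00703 and 0.00899).

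The solvent call of Lhfpl5 was close to the threshold. It was kept in 3 of 16 fits that left out 1 library, those without heterozygous FK228 replicate 2 or 5 or heterozygous solvent replicate 4, and the adjusted p ran from 0.00359 to 0.148 over the 16 fits, with log2 fold changes from -1.01 to -0.62. It was lost when only the groups compared were fitted (adjusted p = 0.129) and with the summed level of Y-linked genes in the model (adjusted p = 0.0841). FK228 lowered Lhfpl5 by a similar size in each genotype, at -0.53 ± 0.20 in heterozygous (adjusted p = 0.0387) and -0.54 ± 0.19 in wild-type cultures (adjusted p = 0.028), and the difference of the effects was 0.01 ± 0.29. The heterozygous FK228 call was lost without FK228 replicate 2 or 4 or solvent replicate 4 or 5 (adjusted p up to 0.209), and without the 2 libraries lowest in reads outside genes (-0.29, adjusted p = 0.175). The wild-type FK228 call was lost without FK228 replicate 2, 4 or 7 or solvent replicate 1 (adjusted p up to 0.101). With the share of reads outside genes in the model, both calls were lost, at -0.27 in heterozygous (adjusted p = 0.232) and -0.30 in wild-type cultures (adjusted p = 0.16).

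**Figure D4:**
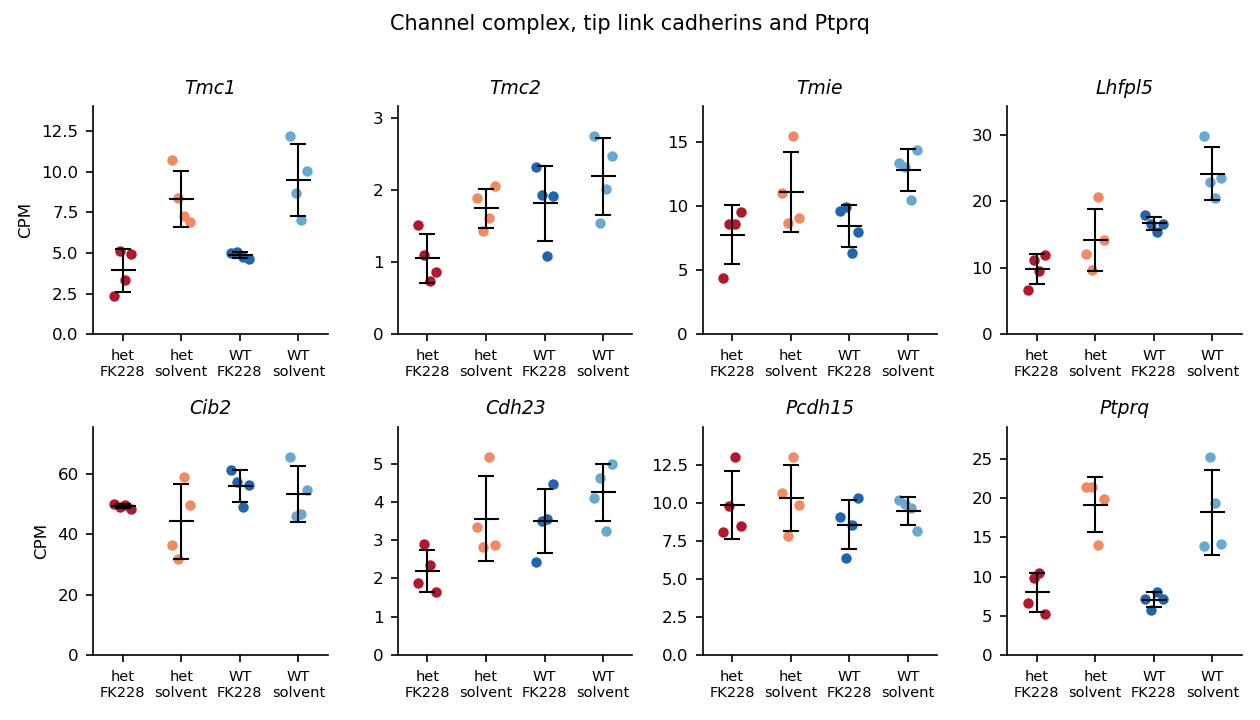
CPM of the 5 channel complex genes, the tip link cadherins Cdh23 and Pcdh15, and Ptprq in every library by group (points), with the mean and SD of 4 libraries (black), on linear axes from 0. Lhfpl5 is at 6.73 to 11.9 in heterozygous FK228 and 9.76 to 20.7 in heterozygous solvent libraries, against 15.5 to 18 in wild-type FK228 and 20.5 to 29.9 in wild-type solvent libraries.

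Of the tip link cadherins, Cdh23, the upper part of the link, had 1.89, 2.90, 2.36 and 1.65 CPM in heterozygous FK228 libraries, against 3.36, 2.82, 5.19 and 2.88 CPM in heterozygous solvent libraries. Wild-type libraries had 2.44, 3.51, 3.56 and 4.47 CPM with FK228, against 4.11, 4.62, 3.25 and 5.0 CPM in solvent. Groups overlapped in both genotypes. It fell with a log2 fold change of -0.69 ± 0.26 in heterozygous cultures (adjusted p = 0.0379) and did not pass in wild type (-0.28 ± 0.25, adjusted p = 0.362). The heterozygous call was lost without FK228 replicate 2, 4 or 5 or solvent replicate 1 or 4 (adjusted p up to 0.172). It was also lost under 5 of 13 other settings, of which the fit to recovered reads only repeats the reported fit. Pcdh15, the lower part of the link, had 8.09, 9.79, 13 and 8.50 CPM in heterozygous FK228 libraries, against 10.6, 7.79, 13 and 9.86 CPM in heterozygous solvent libraries. Its wild-type levels were 9.08, 6.41, 8.51 and 10.3 CPM with FK228, against 10.2, 9.90, 9.65 and 8.16 CPM in solvent. Its groups overlapped throughout, with log2 fold changes of -0.06 ± 0.18 and -0.14 ± 0.18.

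Among the other link proteins, Ptprq, a receptor phosphatase of the shaft connectors on chromosome 10 (107517049 to 107720051, minus strand), had 6.58, 9.79, 10.4 and 5.27 CPM in heterozygous FK228 libraries, against 21.4, 21.4, 14.1 and 19.9 CPM in heterozygous solvent libraries. The wild-type values were 7.15, 5.74, 8.03 and 7.19 CPM with FK228, against 13.9, 25.3, 19.3 and 14.1 CPM in solvent. No FK228 library reached the lowest solvent library of its genotype. Ptprq fell with log2 fold changes of -1.25 ± 0.22 in heterozygous (adjusted p = 0.000157) and -1.37 ± 0.22 in wild-type cultures (adjusted p = 6.08e-05). Clrn1, a tetraspan membrane protein of the bundle and synapse, had 2.65, 2.27, 1.76 and 3.15 CPM in heterozygous FK228 libraries, against 5.66, 5.24, 8.69 and 6.16 CPM in heterozygous solvent libraries. In wild type it had 3.86, 3.32, 3.08 and 4.08 CPM with FK228, against 6.28, 6.93, 5.66 and 5.29 CPM in solvent. It fell with log2 fold changes of -1.39 ± 0.21 (adjusted p = 2.88e-05) and -0.75 ± 0.20 (adjusted p = 0.00455), without overlap in either genotype. Ush1c, which encodes the PDZ scaffold harmonin, was called in neither genotype, at 37.0 to 45.6 CPM in heterozygous FK228, 30.2 to 43.6 in heterozygous solvent, 32.7 to 40.7 in wild-type FK228 and 27.8 to 45.5 CPM in wild-type solvent libraries. It was called higher in heterozygous cultures with the share of reads outside genes in the model (0.38, adjusted p = 0.0106) and without the 2 libraries lowest in that share (0.32, adjusted p = 0.0321).

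Loxhd1, a stereocilia protein with PLAT domains, fell with log2 fold changes of -0.86 ± 0.24 in heterozygous (adjusted p = 0.00685) and -0.96 ± 0.23 in wild-type cultures (adjusted p = 0.00212). Its levels were 1.55 to 3.18 CPM with FK228 against 3.77 to 4.82 CPM in solvent in heterozygous libraries, and 2.29 to 3.07 CPM against 3.53 to 6.95 CPM in wild-type libraries. The heterozygous Loxhd1 call was lost with the replicate number in the model (adjusted p = 0.0515). Strc, which encodes stereocilin of the top connectors, was called in neither, at 1.97 to 5.98 CPM in heterozygous FK228, 2.45 to 5.34 in heterozygous solvent, 2.83 to 5.85 in wild-type FK228 and 2.75 to 8.50 CPM in wild-type solvent libraries.

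In the actin core 3 of 8 genes fell with FK228 in heterozygous cultures and 5 of 8 in wild-type cultures, where 24.7% and 25.3% of all genes were called lower. None of the 8 was called higher in the fit reported, but with the share of reads outside genes in the model Espn was called higher in heterozygous (0.53, adjusted p = 0.0229) and Pls1 in wild-type cultures (0.36, adjusted p = 0.0318). Eps8, an actin regulator of the tip complex, Xirp2, an actin-binding repeat protein, and Espnl, a relative of espin, fell in both. Xirp2 fell with log2 fold changes of -1.57 ± 0.36 in heterozygous (adjusted p = 0.00148) and -1.28 ± 0.34 in wild-type cultures (adjusted p = 0.00409). It had 0.946 to 1.51 CPM with FK228 against 2.42 to 5.45 CPM in solvent in heterozygous libraries, and 0.785 to 2.55 CPM against 2.93 to 5.56 CPM in wild-type libraries. Eps8 fell with log2 fold changes of -0.30 ± 0.09 (adjusted p = 0.0107) and -0.39 ± 0.09 (adjusted p = 0.00141). Espnl fell with log2 fold changes of -0.92 ± 0.36 (adjusted p = 0.0393) and -1.10 ± 0.35 (adjusted p = 0.0136), and its heterozygous call was lost without FK228 replicate 2, 3 or 4 or solvent replicate 1, 4 or 5 (adjusted p up to 0.112). It was also lost with the share of reads outside genes in the model (-0.64, adjusted p = 0.156) and without the 2 libraries lowest in that share (-0.77, adjusted p = 0.118).

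Fscn2, the fascin of mature stereocilia, and Triobp, which bundles the rootlet, fell in wild type, with log2 fold changes of -0.94 ± 0.35 (adjusted p = 0.0333) and -0.33 ± 0.08 (adjusted p = 0.0025). In heterozygous cultures they did not pass (-0.85 ± 0.37, adjusted p = 0.0673, and -0.19 ± 0.08, adjusted p = 0.0715). The difference between the genotypes was 0.09 ± 0.51 for Fscn2 and 0.15 ± 0.12 for Triobp, and neither passed. The Fscn2 call was lost without wild-type FK228 replicate 4 or 7 or wild-type solvent replicate 1 (adjusted p up to 0.116), and without the 2 libraries lowest in reads outside genes (-0.73, adjusted p = 0.0869). Espn (espin), Eps8l2 and Pls1 were called in neither genotype in the fit reported. Of the exons of Eps8l2, 32.2% is shared with other genes, the largest overlap being with B230206H07Rik. Reads that could be of more than 1 gene were ambiguous and entered the count of no gene.

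Of the proteins of the taper, membrane linkage and polarity, the glutaredoxin-like pair Grxcr1 and Grxcr2, which are needed for normal bundle shape in mice, and Rdx fell in both genotypes. Grxcr2 had 2.27, 2.27, 2.91 and 2.60 CPM in heterozygous FK228 libraries, against 4.96, 5.96, 7.81 and 7.94 CPM in heterozygous solvent libraries. Wild-type libraries had 4.83, 5.20, 2.17 and 2.60 CPM with FK228, against 13.1, 8.80, 10.3 and 12.2 CPM in solvent. The groups did not overlap, and wild-type FK228 libraries split into a higher and a lower pair. Grxcr2 fell with log2 fold changes of -1.41 ± 0.26 (adjusted p = 0.00023) in heterozygous and -1.59 ± 0.25 (adjusted p = 3.49e-05) in wild-type cultures. Xirp2 and Espnl were lowest in the same pair of wild-type FK228 libraries, replicates 4 and 7, at 0.785 and 1.08 CPM for Xirp2 and 0.845 and 0.679 CPM for Espnl. Rdx had 161, 153, 146 and 124 CPM in heterozygous FK228 libraries, against 204, 202, 207 and 226 CPM in heterozygous solvent libraries. Its wild-type levels were 156, 178, 163 and 156 CPM with FK228, against 226, 197, 219 and 220.2 CPM in solvent. It fell with log2 fold changes of -0.52 ± 0.08 (adjusted p = 2.65e-05) and -0.40 ± 0.08 (adjusted p = 0.000376). Grxcr1 fell with log2 fold changes of -0.89 ± 0.25 (adjusted p = 0.00732) and -0.96 ± 0.24 (adjusted p = 0.00309). Tprn (taperin) and Gpsm2, a G protein regulator that sets bundle polarity, were called in neither, but Gpsm2 was called higher in heterozygous (0.23, adjusted p = 0.0348) and wild-type cultures (0.31, adjusted p = 0.0063) without the 2 libraries lowest in reads outside genes.

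Genotype left most of the 35 genes uncalled. In solvent 0 were higher and 1 was lower (Lhfpl5) in heterozygous cultures, where 1.2% of all genes were called higher and 0.823% lower; 6 of the 35 had an unadjusted p under 0.05, beside 11.3% of all genes. With FK228 edgeR called 0 higher and 0 lower, where 1.21% of all genes were called higher and 0.928% lower; 6 had an unadjusted p under 0.05, beside 12.9% of all genes, and DESeq2 called 1 (Lhfpl5). The median log2 fold change over the 35 genes was -0.18 with FK228 and -0.21 in solvent, against -0.0038 and -0.0099 over all genes. It was below 0 for 25 of the 35 with FK228 and for 28 in solvent. Grxcr2 had the next smallest p in solvent, with no overlap between the groups, at -0.74 ± 0.24 (adjusted p = 0.152). Myo7a stood at -0.66 ± 0.23 (adjusted p = 0.218) and Myo6 at -0.28 ± 0.10 (adjusted p = 0.232) in the same contrast. Myo6 was called there without heterozygous solvent replicate 4 (-0.40, adjusted p = 0.0206).

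**Figure D5:**
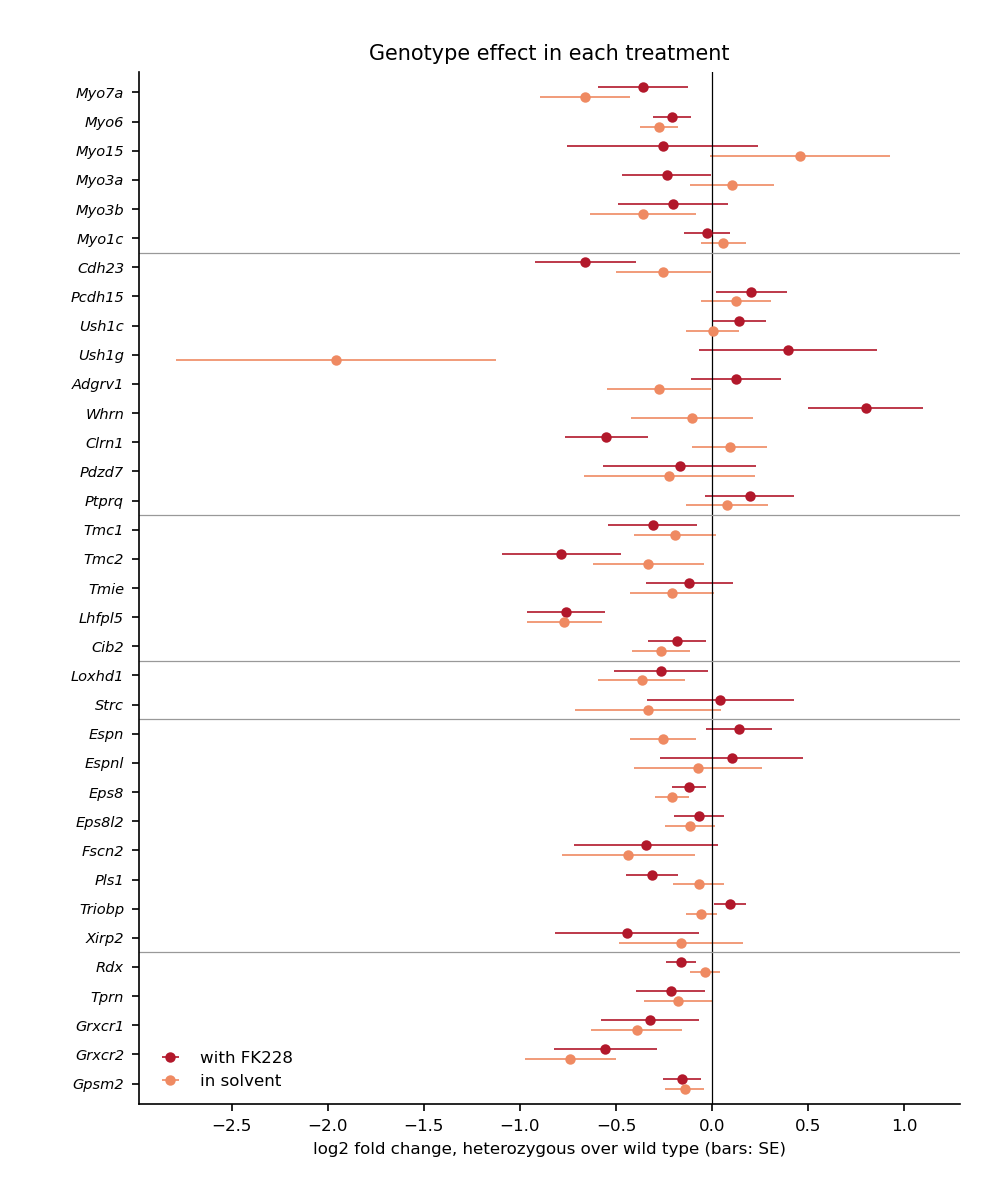
Log2 fold change of heterozygous over wild type for the 35 genes with FK228 (dark red) and in solvent (orange), with SE bars, by role. Lhfpl5 stands at -0.76 and -0.77, and Ush1g in solvent (-1.96 ± 0.83) rests on at most 2 counts in each heterozygous library.

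The FK228 effect was not shown to depend on genotype for any of the 35 genes in the fit reported. The interaction called 0 higher and 0 lower with edgeR and with DESeq2, where 0.0175% of all genes were called higher and 0.00584% lower, and 2 of the 35 had an unadjusted p under 0.05, beside 5.81% of all genes. These were Ush1g (2.35 ± 0.95, adjusted p = 0.812) and Clrn1 (-0.64 ± 0.29, adjusted p = 0.844), as heterozygous minus wild-type FK228 effect on the log2 scale.

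Further genes of the bundle were read as a list of 55 that are not among the 35. Of these 53 were tested. With FK228 14 rose and 19 fell in heterozygous cultures (median -0.20), and 15 rose and 21 fell in wild type (median -0.16), beside 23.8% of all genes higher and 24.7% lower in heterozygous cultures and 23.7% and 25.3% in wild type. Calml4, a calmodulin-like protein, fell with log2 fold changes of -1.25 ± 0.10 and -1.08 ± 0.10, and Lcp1, the plastin of leukocytes that also cross-links actin in hair cells, fell with log2 fold changes of -1.24 ± 0.11 and -1.25 ± 0.11. All 14 macrophage genes read below fell too, and the part of leukocytes in the Lcp1 level was not tested. Kif3a, a kinesin motor of the cilium, rose by 0.86 ± 0.08 in heterozygous and 0.67 ± 0.08 in wild-type cultures, and Fchsd1, an F-BAR protein, by 1.27 ± 0.16 and 1.34 ± 0.16. By genotype, Calml4 was higher in heterozygous cultures in solvent (0.42 ± 0.10, adjusted p = 0.0308). Atp2b2, the calcium pump of the bundle membrane, was lower in them with FK228 (-0.72 ± 0.11, adjusted p = 0.00132), and the other 51 passed in neither contrast.

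Markers of hair cells and of other cells were called in the same comparisons, and their counts are to be read against the 23.8% of all genes higher and 24.7% lower with FK228 in heterozygous cultures, and 23.7% and 25.3% in wild type. By genotype, the shares of all genes were 1.21% higher and 0.928% lower with FK228, and 1.2% and 0.823% in solvent. Of 31 tested hair cell genes outside the bundle, such as Otof and the nicotinic receptor genes, 3 rose and 11 fell with FK228 in heterozygous cultures (median -0.68), and 2 rose and 17 fell in wild type (median -0.71). By genotype 0 rose and 5 fell with FK228, and 0 rose and 6 fell in solvent. Their summed level ran from 778.8 to 937 CPM in heterozygous FK228, 697 to 1166 in heterozygous solvent, 991 to 1196 in wild-type FK228 and 1041 to 1352 CPM in wild-type solvent libraries. All 14 macrophage genes fell with FK228 in both genotypes, with summed levels of 37.9 to 53.9 CPM against 332 to 484 CPM in heterozygous and 57.4 to 73.1 CPM against 479.8 to 571 CPM in wild-type libraries. Of 29 supporting cell genes 0 rose and 16 fell in heterozygous cultures, and 2 rose and 13 fell in wild type. Their sums ran from 4749 to 5683 CPM with FK228 against 5582 to 7659 CPM in heterozygous solvent libraries, and 4925 to 5394 CPM against 4886 to 6379 CPM in wild-type libraries. Of 15 mesenchyme genes 1 rose and 11 fell in heterozygous and 1 rose and 13 fell in wild-type cultures, with sums of 4101 to 4811 CPM against 7522 to 8615 CPM and 3702 to 4928 CPM against 6841 to 8611 CPM. Of 19 neuron genes 9 rose and 4 fell in heterozygous and 7 rose and 7 fell in wild-type cultures, and of 13 Schwann cell genes 4 rose and 7 fell and 4 rose and 6 fell. Neuron sums ran from 1116 to 1263 CPM with FK228 against 1225 to 1610.4 CPM in heterozygous solvent libraries, and 1256 to 1652 CPM against 1368 to 1719 CPM in wild-type libraries. Schwann cell sums ran from 372 to 401 CPM against 469 to 517 CPM and from 357 to 407 CPM against 454 to 539 CPM. By genotype, with FK228 3 neuron, 1 macrophage and 1 supporting cell gene were lower in heterozygous cultures, and in solvent 6 neuron genes were lower and 1 supporting cell gene was higher. No marker was at 0 in all libraries of a group, and the part of these shifts in the results of the 35 genes was not tested.

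Directions above are relative to the bulk of genes in each library. With spike-in scaling the median of all genes moved to -0.72 with FK228 over solvent in heterozygous and -0.16 in wild-type cultures, and to -0.74 for heterozygous over wild type with FK228 and -0.18 without it. Of the 35 genes 2 then rose and 27 fell with FK228 in heterozygous cultures, where 4.71% of all genes rose and 62.6% fell under the same scaling. In wild type 3 rose and 16 fell, where 11.7% of all genes rose and 26.4% fell. By genotype with FK228, 0 rose and 29 fell, where 0.561% of all genes rose and 74.5% fell. By genotype in solvent, 0 rose and 2 fell, where 0.607% of all genes rose and 1.12% fell.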

How the data were processed

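The authors deposited raw read counts per gene for 16 libraries and a normalized table. Reads were aligned with STAR 2.5.2a to GRCm38.p4 and normalized with DESeq2, per the submitters' processing notes. Oligo-dT priming, template switching and Nextera XT gave unstranded paired-end libraries, per the labels' protocols, so reads from overlapping genes on opposite strands were not separated. Ambiguous reads were tallied apart and entered the count of no gene. The deposited normalized signal values gave whole reads for 100% of values (tolerance 0.001 reads), and these were equal to the deposited counts. Counts were tested with edgeR 4.0.16 (R 4.3.3), using TMM factors, a minimum count of 10 in the smallest group and of 15 in total, the quasi-likelihood test over all 16 libraries with 4 group means, and Benjamini-Hochberg adjustment over 17125 genes; genes with adjusted p under 0.05 were called. Reads outside genes were 10.5% to 21% and stayed out of library sizes. Names and exon lengths are those of GENCODE M21 (99.3% of identifiers matched). The intervals of Ush1g ratios are exact binomial.

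Members and lists were chosen with earlier results of these data known. All 35 members are named; of other genes, those named have the smallest p of a list in a contrast. Lists matched 178 of 181 symbols. Library pairs within a group differed beyond counting noise (chi-square per degree of freedom 6.57 to 29.1). Alternatives were DESeq2 1.42.0, RLE factors, spike-in scaling, other filters, only the groups compared, a replicate block, limma 3.58.1 (voom with quality weights, and log2 of the normalized table plus 1), technical covariates and left-out libraries. The test was tried on simulated counts.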

Additional observations from a re-analysis of the deposited data

Results flagged for a closer look

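In heterozygous FK228 replicate 4, Espn stood at 12.8 CPM, apart from the other 3 libraries of its group at 9.91 to 10.4 CPM. In wild-type solvent replicate 1, Fscn2 stood at 7.82 CPM, apart from the other 3 libraries of its group at 4.48 to 5.05 CPM. These are the libraries whose gap to the nearest other exceeded the 95% limit for 4 samples, and chance alone exceeds it in about 1 in 20 groups. The limit was applied to all 35 genes in each of the 4 groups, so several such values would arise by chance alone. Espn was called in neither FK228 contrast, and the Fscn2 call in wild type was lost without that library.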

How the results depend on the processing

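The 39 calls of the 35 genes all kept their side of the threshold with DESeq2, RLE factors, the stricter filter and limma on the normalized table. A fit to the reads recovered from that table was chosen after seeing the data. Those reads equal the deposited counts, so it only repeats the reported fit and is no further check. Calls were lost with the share of reads outside genes in the model (6), only the groups compared (4), without the 2 libraries lowest in reads outside genes (4), spike-in scaling (3, and Myo6 in heterozygous cultures reversed at -0.16), voom with quality weights (2), no filter (1) and the Y-linked level (1), and 1 to 5 were lost per left-out library; the cause was not tested.

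With FK228, genes that rose in heterozygous cultures (5) numbered 2 with spike-in scaling, 9 with the outside-gene share and 8 without the 2 libraries; those that fell (14) numbered 27 with spike-in scaling. Genes that rose in wild type (4) numbered 7 with the outside-gene share. As this share differed between FK228 and solvent libraries, counts under it are not corrected ones. With that share in the model, 4195 of all 17125 genes tested were called higher in heterozygous cultures and 4078 in wild type. By genotype with FK228, the 0 lower genes became 29 with spike-in scaling and 1 (Lhfpl5) with DESeq2, no filter, only the groups compared, voom, limma on the normalized table, the outside-gene share, and without the 2 libraries. By genotype in solvent, the 1 lower gene became 2 with spike-in scaling and with the outside-gene share (which adds Grxcr2), and 0 with only the groups compared, the replicate block and the Y-linked level. Spike-in scaling gave 6 lower interactions in place of 0, where 4069 of all 17125 genes tested were called and only 9 of those were higher.

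Leaving out each library gave 4 to 6 higher and 11 to 16 lower genes with FK228 in heterozygous cultures, 3 to 5 and 11 to 16 in wild type, 0 to 1 lower by genotype with FK228 and 0 to 2 lower by genotype in solvent. Same-numbered libraries of different groups correlated between -0.23 and 0.17 in their deviations from group means, against -0.28 to 0.35 for other pairs. Such values cannot exclude a shared litter or batch, and the labels do not say whether a number is shared. The replicate block gave 5 higher and 11 lower genes with FK228 in heterozygous cultures and 3 higher and 11 lower in wild type, and 9 of 39 calls were lost. The FK228 calls lost were Loxhd1, Espnl and Lhfpl5 in heterozygous cultures, and Espnl, Tmie, Fscn2, Lhfpl5 and Pdzd7 in wild type. The call of Lhfpl5 by genotype in solvent was lost too. Ush1g had 0 to 43, Pdzd7 4 to 49, Myo15 8 to 53 and Tmc2 11 to 61 reads per library, the fewest of the 35 genes; what more depth would change was not tested.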
